A study of Homo sapiens with 14 samples.

Results

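The 44 genes described here encode human 2-oxoglutarate-dependent oxygenases other than the KDM6 enzymes: 14 Jumonji C (JmjC) histone demethylases, 6 JmjC hydroxylases, 3 TET enzymes, 7 members of the AlkB family, 3 prolyl hydroxylases of hypoxia-inducible factor (HIF), 6 collagen prolyl and lysyl hydroxylases, and 5 further oxygenases. The rule that chose them goes by gene family and name and uses no measured value, although it was set with earlier results of these data known. All 44 symbols matched an identifier among the 58825 genes in the count tables. KDM6A and KDM6B, the enzymes at which the compound is aimed, are not among the 44 and are given beside them.

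RNA was sequenced from 3 human ovarian cancer lines, OVCAR-3, CAOV3 and SKOV3, each treated at 2.5 µM with GSK-J4 or with GSK-J5. GSK-J4 is a cell-permeable ester of GSK-J1, which occupies the 2-oxoglutarate pocket of KDM6A and KDM6B, and in biochemical assays GSK-J1 is also known to inhibit KDM5 enzymes. GSK-J5 is the ester of the isomer that serves as the inactive control. Treated OVCAR-3 had 2 libraries at 48 h and 3 at 72 h, and its GSK-J5 controls had the same numbers. CAOV3 and SKOV3 had 3 GSK-J4 and 3 GSK-J5 libraries each, all at 72 h. Both compounds were given in stripped medium, and each line had its own base medium. Every library therefore comes from a cell line treated with a compound, and no untreated library was analysed here.

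Enzymes of this family use molecular oxygen, ferrous iron and 2-oxoglutarate, an intermediate of the citric acid cycle, to hydroxylate their substrates. The same chemistry removes methyl groups from histone lysines, oxidises 5-methylcytosine in DNA, removes alkyl lesions and methyl marks from DNA and RNA, marks HIF-α for degradation, and hydroxylates proline and lysine in collagen. Several of the genes, among them EGLN3, KDM3A, P4HA1 and PLOD2, are textbook targets of HIF itself.

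Total counts per library ran from 24037007 to 37990707. Replicates 1 and 2 form a first library set. Replicate 3 is a second set, for which the labels name another RNA kit, a differently worded medium and poly(A) selection. One OVCAR-3 column with a shortened header was read as replicate 3 of GSK-J4 at 72 h, and every statement on that library rests on this reading. The library stood apart: 15 of the 44 genes lay more than 1 log2 unit from the mean of the other GSK-J4 libraries of 72 h, whereas 0 did so in replicate 3 of GSK-J5. In SKOV3, replicate 3 also stood apart under both compounds, with COL1A2 at 2.92 CPM, a count scaled to the total of its library, under GSK-J4 and 2.58 CPM under GSK-J5, while the other SKOV3 libraries held between 150 and 199 CPM. PAX8, a Müllerian marker, was present in all lines, at 404 CPM or more in OVCAR-3, 32.7 CPM or more in CAOV3 and 153 CPM or more in SKOV3. WT1 was at or near 0 in CAOV3, and MUC16 was at or near 0 in SKOV3, where EPCAM and CDH1 were also low, at no more than 19.9 and 9.75 CPM. The leukocyte markers CD3E and PTPRC reached no more than 0.0314 and 1.0 CPM in any line, although CD14 reached 110 CPM in CAOV3.

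After 48 h in OVCAR-3, GSK-J4 raised 11 of the 44 genes and lowered 5, by edgeR's quasi-likelihood test at an adjusted p under 0.05. Among all 17402 genes tested, 11.3% were called higher and 7.63% lower. The gains were led by the demethylase KDM7A and the alkylation repair enzyme ALKBH3, and the losses by KDM8, EGLN2, PLOD2 and EGLN3. Among the collagen hydroxylases PLOD3 and P4HA2 rose while PLOD2 and P4HA1 fell, whereas EGLN2 and EGLN3 both fell and ALKBH1 and ALKBH3 both rose. The median log2 fold change of the 44 was -0.04, beside -0.03 over all genes. No source says that replicates came from separate cultures, so each p measures the spread between these libraries only. As these are bulk samples, fewer cells of a kind and less RNA per cell cannot be told apart.

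**Figure D1:**
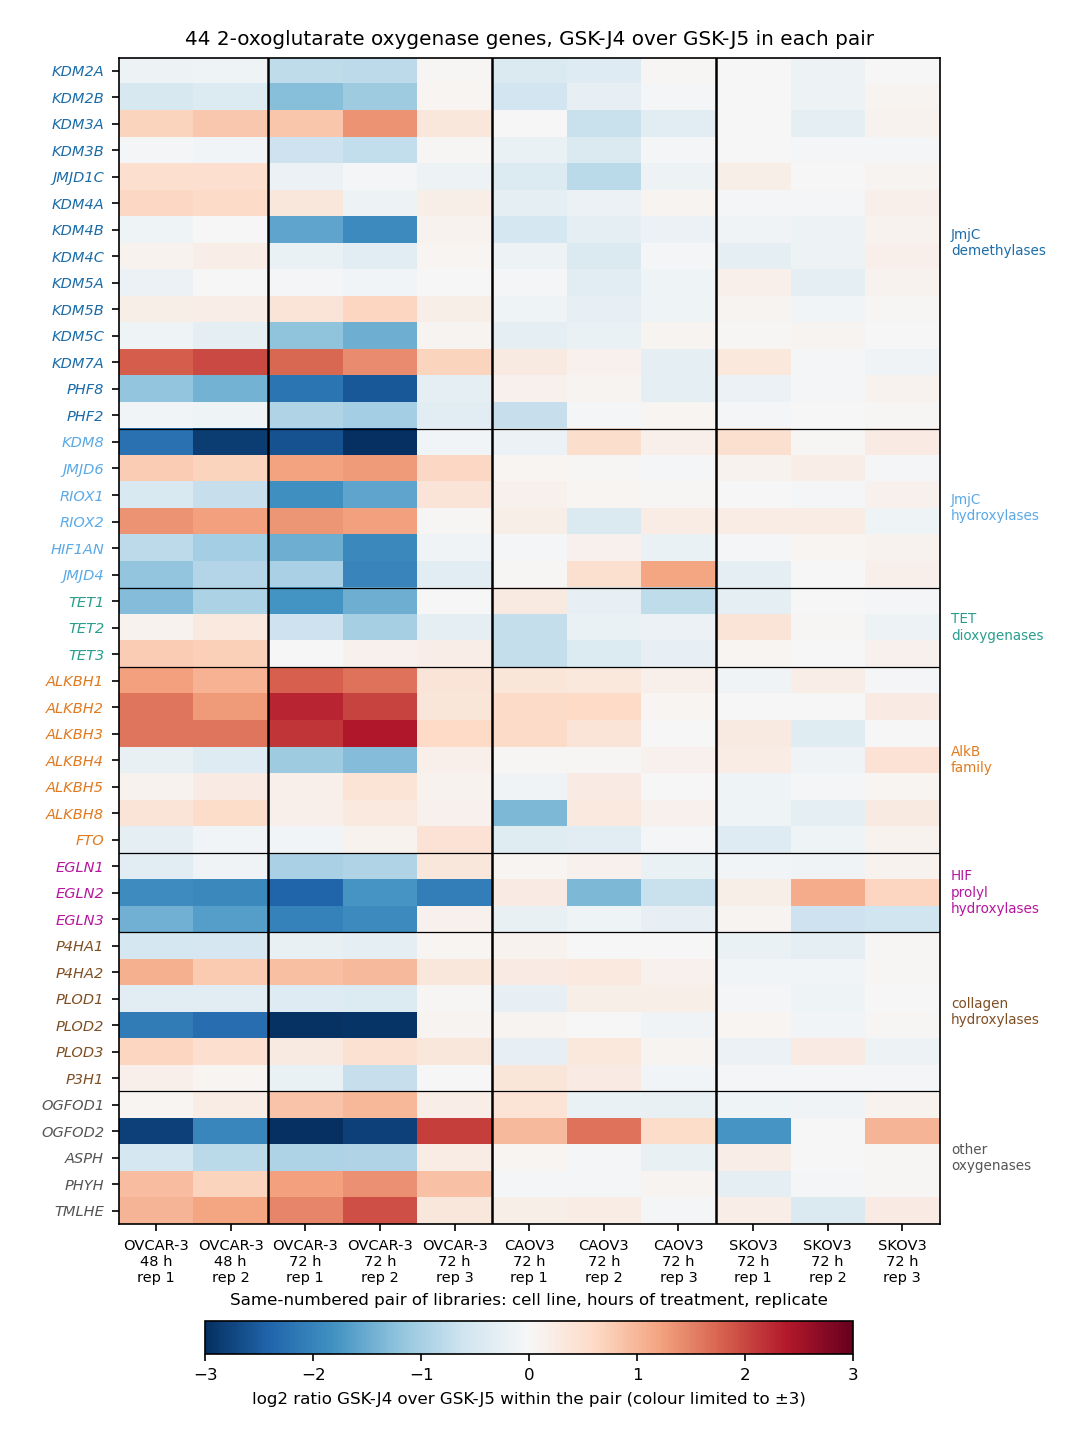
Log2 ratio of GSK-J4 over GSK-J5 for the 44 genes (down the page, by family) in each same-numbered pair of libraries (across, by line, hours and replicate), computed on log2 CPM with a prior count of 2. Red and blue fill the OVCAR-3 columns of replicates 1 and 2 at both times, while the OVCAR-3 replicate 3 column and the CAOV3 and SKOV3 columns are pale apart from a few scarce transcripts such as OGFOD2 and EGLN2.

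Among the JmjC demethylases, KDM7A, which acts on H3K9 and H3K27 and lies on chromosome 7 at 140084746-140177035 (GRCh38, minus strand), had 29.8 and 36.8 CPM under GSK-J4 against 8.36 and 9.23 CPM under GSK-J5. The groups were well apart, and the rise was 3.85-fold (log2 1.95 ± 0.29 SE, edgeR adjusted p = 0.0153). KDM4A, an H3K9 and H3K36 demethylase, had 31.6 and 30.2 CPM under GSK-J4 against 20.6 and 20.3 CPM under GSK-J5, a rise of 1.54-fold (edgeR adjusted p = 0.0372); 40.2% of its exon bases are shared with another gene on the same strand, so its count is uncertain. JMJD1C, a relative of the H3K9 demethylases KDM3A and KDM3B, rose 1.45-fold (edgeR adjusted p = 0.0491). KDM3A itself had 99.3 and 122 CPM under GSK-J4 against 62.3 and 70.1 CPM under GSK-J5, without overlap, but did not pass (1.71-fold, edgeR adjusted p = 0.0704). PHF8, the close relative of KDM7A that removes methyl groups from H3K9 and H4K20, differed in the other direction, with 45.8 and 45.3 CPM under GSK-J4 against 104 and 121 CPM under GSK-J5. Its adjusted p was 0.0631 in the edgeR fit, with a log2 fold change of -1.27 ± 0.42 SE. The remaining 9 demethylase genes, from KDM2A to PHF2, had log2 fold changes between -0.41 and 0.22 and none passed.

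The JmjC hydroxylases held genes that moved both ways. RIOX2, a ribosome-associated histidyl hydroxylase, had 82.4 and 81.7 CPM under GSK-J4 against 32.6 and 34.8 CPM under GSK-J5. It rose 2.48-fold (log2 1.31 ± 0.32 SE, edgeR adjusted p = 0.0331), with the caveat that 27.6% of its exon bases overlap CRYBG3 on the opposite strand. JMJD6, a lysyl hydroxylase of splicing factors, rose 1.67-fold (edgeR adjusted p = 0.0432). KDM8, known as an arginyl hydroxylase, was scarce, with 6 and 4 counts under GSK-J4 against 36 and 48 counts under GSK-J5, and fell by 2.86 log2 units (± 0.83 SE, edgeR adjusted p = 0.0478). RIOX1, HIF1AN and JMJD4 were lower without passing: HIF1AN, the asparaginyl hydroxylase that limits HIF transactivation, had 74.1 and 61.8 CPM under GSK-J4 against 128 and 126 CPM under GSK-J5 (edgeR adjusted p = 0.0912).

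Of the TET enzymes, which oxidise 5-methylcytosine, only TET3 passed. It had 127 and 138 CPM under GSK-J4 against 75.4 and 84.2 CPM under GSK-J5 and rose 1.69-fold (edgeR adjusted p = 0.0201). TET1 had 6.58 and 8.65 CPM under GSK-J4 against 16.3 and 16.9 CPM under GSK-J5, groups that did not overlap, but its adjusted p was 0.0651 by edgeR. TET2 had a log2 fold change of 0.23 ± 0.18 SE and did not pass.

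Within the AlkB family ALKBH3, ALKBH2 and ALKBH1 stood highest. ALKBH3, which reverses alkylation damage in single-stranded DNA and RNA and lies on chromosome 11 at 43880811-43920266 (plus strand), had 61.1 and 59.4 CPM under GSK-J4 against 20.1 and 19.4 CPM under GSK-J5. It rose 3.11-fold (log2 1.64 ± 0.40 SE, edgeR adjusted p = 0.0345). ALKBH1, known for demethylating transfer RNA, had 39.6 and 37.0 CPM under GSK-J4 against 16.8 and 17.97 CPM under GSK-J5, a rise of 2.25-fold (edgeR adjusted p = 0.0458). ALKBH2, the nuclear repair enzyme for double-stranded DNA, had 55.3 and 41.2 CPM under GSK-J4 against 18.1 and 16.9 CPM under GSK-J5, and its 2.81-fold difference missed the threshold (edgeR adjusted p = 0.0515). The N6-methyladenosine erasers ALKBH5 and FTO had log2 fold changes of 0.21 and -0.14 and did not pass, nor did ALKBH8 (0.51), which modifies transfer RNA, or ALKBH4 (-0.28), a demethylase of actin.

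All 3 HIF prolyl hydroxylases had negative fold changes. EGLN3, on chromosome 14 at 33924231-34462774 (minus strand), had 19.4 and 18.8 CPM under GSK-J4 against 52.8 and 58.7 CPM under GSK-J5 and fell 2.86-fold (log2 -1.52 ± 0.42 SE, edgeR adjusted p = 0.0431). EGLN2 was scarce, with 0.175 and 0.111 CPM under GSK-J4 against 0.826 and 0.616 CPM under GSK-J5, and fell by 2.27 log2 units (edgeR adjusted p = 0.0348); 30.6% of its exon bases are shared on the same strand with the read-through gene RAB4B-EGLN2 and AC008537.1 together, so its count is uncertain. EGLN1, the main oxygen sensor of the family, did not pass (log2 -0.18 ± 0.27 SE).

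The collagen hydroxylases split within families. PLOD2, the telopeptide lysyl hydroxylase, lies on chromosome 3 at 146069440-146163653 (minus strand). It had 17.4 and 15.4 CPM under GSK-J4 against 74.2 and 75.3 CPM under GSK-J5, a fall of 4.46-fold (log2 -2.16 ± 0.61 SE, edgeR adjusted p = 0.0461). PLOD3, which also adds sugars to hydroxylysine, had 119 and 115 CPM under GSK-J4 against 76.3 and 80.8 CPM under GSK-J5 and rose 1.52-fold (edgeR adjusted p = 0.0309). Of the catalytic subunits of prolyl 4-hydroxylase, P4HA2 had 52.0 and 43.3 CPM under GSK-J4 against 24.6 and 25.2 CPM under GSK-J5 (1.95-fold higher, edgeR adjusted p = 0.0299). P4HA1 had 46.1 and 44.9 CPM under GSK-J4 against 66.3 and 63.5 CPM under GSK-J5 (1.40-fold lower, edgeR adjusted p = 0.0425). PLOD1 and the prolyl 3-hydroxylase P3H1 did not pass.

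Of the remaining oxygenases, PHYH, the peroxisomal hydroxylase of phytanoyl-CoA, had 20.4 and 18.7 CPM under GSK-J4 against 10.7 and 11.7 CPM under GSK-J5 and rose 1.78-fold (edgeR adjusted p = 0.0354). TMLHE, the first enzyme of carnitine synthesis, had 16.1 and 17.02 CPM under GSK-J4 against 7.88 and 7.42 CPM under GSK-J5 without passing (edgeR adjusted p = 0.0573). OGFOD2 had 0 and 1 counts under GSK-J4 against 12 and 11 counts under GSK-J5, too few for a fold, and 67.3% of its exon bases overlap another gene on the same strand. OGFOD1, a prolyl hydroxylase of a ribosomal protein, and ASPH, an aspartyl and asparaginyl hydroxylase, had log2 fold changes of 0.17 and -0.63 and did not pass.

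**Figure D2:**
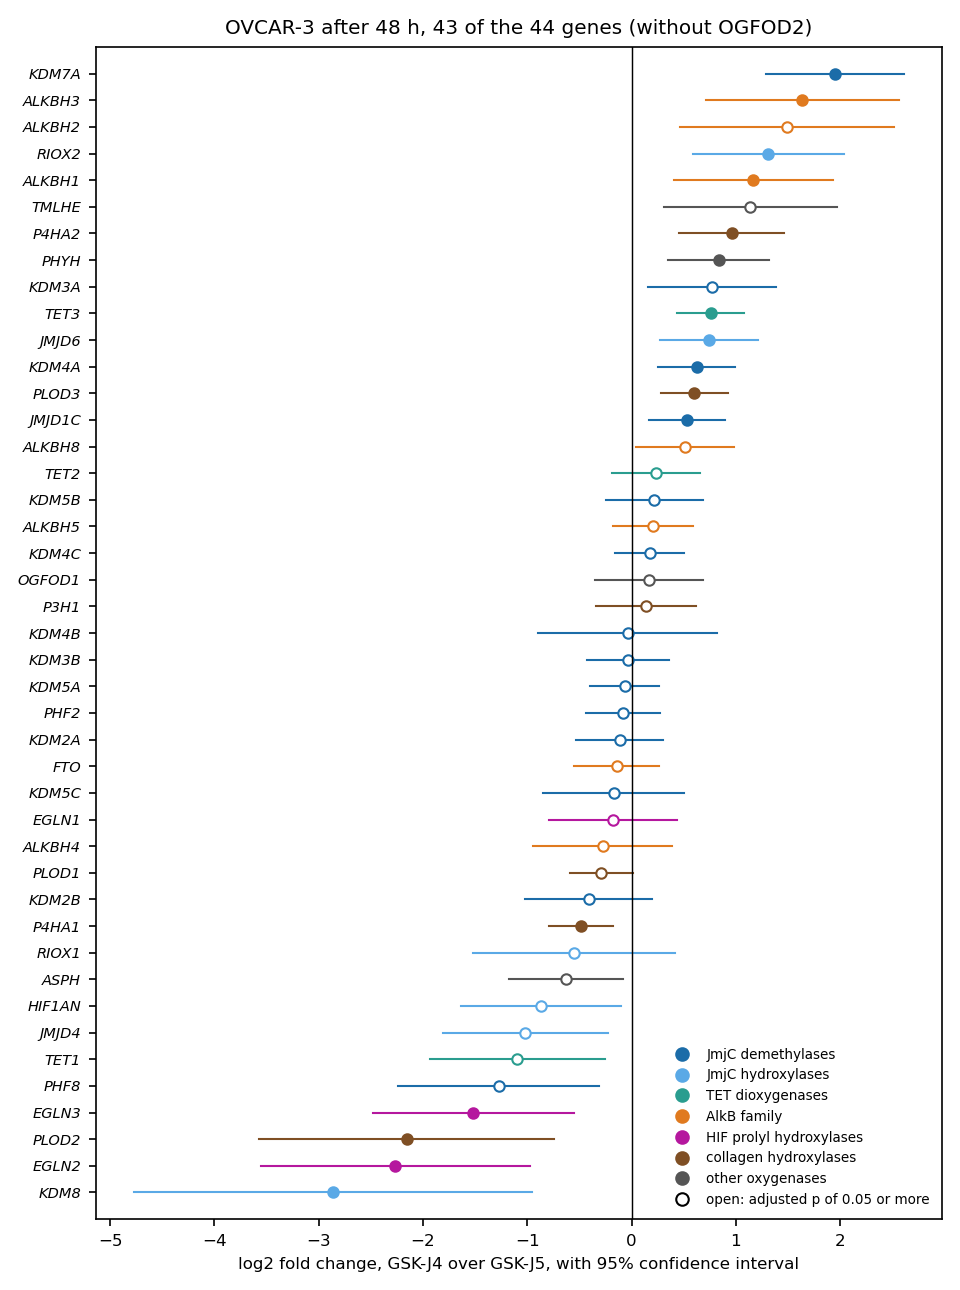
Log2 fold change of GSK-J4 over GSK-J5 in OVCAR-3 after 48 h with its 95% confidence interval (horizontal axis) for 43 of the 44 genes, coloured by family and ordered by value. Filled points have an edgeR adjusted p under 0.05, from KDM7A at 1.95 to KDM8 at -2.86, and OGFOD2 is left out because it held 1 count in all under GSK-J4.

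These 48 h calls came from a fit of all 10 OVCAR-3 libraries and depended on their spread. Leaving out any of the 4 libraries of 48 h left 0 of the 44 genes called, beside 0% of all genes. Leaving out 72 h libraries gave between 2 and 29, beside 8.33% to 58.6% of all genes. With the first library set alone the count was 15 higher and 14 lower, beside 29.1% and 29.8% of 17090 genes, the added calls including ALKBH2, TMLHE and KDM3A among the higher and PHF8, TET1, HIF1AN and JMJD4 among the lower.

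The promoters of PLOD2 and P4HA1 are shown because both genes are known HIF targets and both fell at 48 h, with EGLN3. They were thus chosen by direction and do not show how HIF targets moved as a group. Among the hypoxia targets listed further below, VEGFA rose and PDK1 fell in the same fit. The sequences are the RefSeq windows of 300 bases (GRCh38.p14), from 250 before to 50 after the transcription start, and capitals mark the hypoxia response core ACGTG or GCGTG on either strand. The PLOD2 window is chr3:146161135-146161434 and the P4HA1 window chr10:73096817-73097116, both on the minus strand.
PLOD2: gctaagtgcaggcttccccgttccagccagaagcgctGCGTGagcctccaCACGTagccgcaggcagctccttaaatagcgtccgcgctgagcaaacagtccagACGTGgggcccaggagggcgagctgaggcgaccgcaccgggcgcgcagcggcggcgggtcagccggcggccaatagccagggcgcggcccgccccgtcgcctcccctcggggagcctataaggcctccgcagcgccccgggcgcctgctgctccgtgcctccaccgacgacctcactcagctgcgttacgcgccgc
P4HA1: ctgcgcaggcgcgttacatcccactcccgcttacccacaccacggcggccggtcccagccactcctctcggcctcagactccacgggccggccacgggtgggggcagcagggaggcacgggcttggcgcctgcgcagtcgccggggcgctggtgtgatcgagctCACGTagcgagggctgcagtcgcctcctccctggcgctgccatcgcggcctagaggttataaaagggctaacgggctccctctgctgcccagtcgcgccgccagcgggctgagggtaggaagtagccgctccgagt
The PLOD2 window held 3 cores and the P4HA1 window 1. The window of KDM3A, also a known HIF target, held 1 as well, and KDM3A was higher at 48 h without passing and called higher on the first library set. A core was also found in 28 of the 40 windows that matched one of the 44 genes, or 70.0%, and in 48.4% of all 35116 windows of that length, so such matches are common; no overlap with other motifs was examined. The windows of EGLN3, which fell, and of P4HA2, which rose, held none.

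At 72 h in OVCAR-3, with all 3 replicates, edgeR called 0 of the 43 genes tested, against 0.0313% of all 15966 genes, while 27 of the 43 had an unadjusted p under 0.05, as did 44.3% of all genes, and DESeq2 called 24 (11 higher and 13 lower, beside 20.5% and 18.8% of all genes). OGFOD2 was below the filter on low counts. The replicates were split: 21 and 25 of the 44 genes differed by more than 1 log2 unit between GSK-J4 and GSK-J5 in replicates 1 and 2, against 2 genes in replicate 3. In the fit of replicates 1 and 2 alone, 14 of the 44 genes rose and 21 fell, beside 34.6% higher and 37.1% lower among all 16281 genes tested. The replicate 3 pair leaned to positive ratios over the whole family, with 36 of the 44 genes above 0 and a median log2 ratio of 0.119. In that pair, all 14 of the higher genes had a ratio of GSK-J4 to GSK-J5 above 1, with a median log2 ratio of 0.345, but 14 of the 21 lower genes had one above 1 too, with a median log2 ratio of 0.043.

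ALKBH3 showed the first of these patterns, with 90.9, 97.0 and 38.3 CPM in GSK-J4 replicates 1, 2 and 3 against 20.5, 18.4 and 25.4 CPM under GSK-J5. All treated libraries were above all controls (log2 1.71 ± 0.41 SE, edgeR adjusted p = 0.0698; 5.09-fold, adjusted p = 7.41e-07, on replicates 1 and 2). ALKBH2 had 97.5, 75.2 and 30.6 CPM under GSK-J4 against 20.0, 18.4 and 23.8 CPM under GSK-J5, again without overlap (edgeR adjusted p = 0.0704). ALKBH1 had 55.6, 55.8 and 24.1 CPM under GSK-J4 against 15.9, 18.1 and 18.3 CPM under GSK-J5 (edgeR adjusted p = 0.0698). KDM7A had 28.9, 29.6 and 23.1 CPM under GSK-J4 against 8.72, 11.03 and 14.5 CPM under GSK-J5, with replicate 3 nearest its control (log2 1.25 ± 0.28 SE, edgeR adjusted p = 0.0698). TMLHE, PHYH, JMJD6, KDM3A and P4HA2 likewise rose on replicates 1 and 2, by 3.44-, 2.59-, 2.50-, 2.27- and 2.02-fold.

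Among the 21 lower genes 7 had a ratio below 1 in replicate 3, where 36 of the 44 genes had one above 1. PLOD2 had 10.1, 11.5 and 79.0 CPM under GSK-J4 against 79.2, 88.6 and 74.2 CPM under GSK-J5. Replicate 3 thus lay within the control range while replicates 1 and 2 lay far below it (7.41-fold lower on replicates 1 and 2, adjusted p = 6.37e-07; log2 -2.01 ± 0.65 SE, adjusted p = 0.0768 with all, by edgeR). PHF8 had 24.8, 20.5 and 80.2 CPM under GSK-J4 against 114, 120 and 97.2 CPM under GSK-J5, so its groups did not overlap, yet replicate 3 of GSK-J4 stood near the controls (edgeR adjusted p = 0.0698). KDM8 had 0.265, 0.103 and 0.943 CPM under GSK-J4 against 1.98, 1.68 and 1.00 CPM under GSK-J5 (edgeR adjusted p = 0.107). EGLN2 had 0.106, 0.154 and 0.252 CPM under GSK-J4 against 0.851, 0.687 and 1.28 CPM under GSK-J5, and was low in all 3 treated libraries (edgeR adjusted p = 0.0698). EGLN3, HIF1AN, RIOX1, KDM4B, KDM5C and TET1 fell on replicates 1 and 2, by between 2.38-fold for KDM5C and 3.75-fold for EGLN3. OGFOD2 was called too on replicates 1 and 2, where its counts were 0 and 0 under GSK-J4 against 14 and 12 under GSK-J5. In replicate 3 OGFOD2 went the other way, with 7 counts under GSK-J4 against 0 under GSK-J5.

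Library composition moved with these values. Genes with at least 10 counts numbered between 14680 and 16231 in the GSK-J4 libraries of OVCAR-3 at 72 h and between 16444 and 16504 in the GSK-J5 libraries, and the top 20 genes took between 9.81% and 12.99% of the counts under GSK-J4, against 7.74% to 8.65% under GSK-J5. Of 8 markers of Müllerian epithelium and ovarian carcinoma, WT1, KRT8 and KRT18 were called lower at 48 h. The summed level of all 8 over both times ran from 4720 to 7430 CPM under GSK-J4 and from 7290 to 9440 CPM under GSK-J5. EPCAM and CDH1 were not lower over both times together. They had 342 to 452 and 253 to 296 CPM under GSK-J4 against 280 to 388 and 252 to 287 CPM under GSK-J5. Over both times and all replicates the ranges of PAX8, MUC16 and SOX17 overlapped between the compounds, as did those of WT1. At 48 h alone PAX8, MUC16 and SOX17 had fewer counts in both treated libraries, without being called lower. PAX8 had 11552 and 12104 counts under GSK-J4 against 16417 and 19326 under GSK-J5. MUC16 had 7389 and 8879 against 10751 and 13947, and SOX17 3716 and 4281 against 6300 and 8267. The part of these shifts in the results was not tested.

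**Figure D3:**
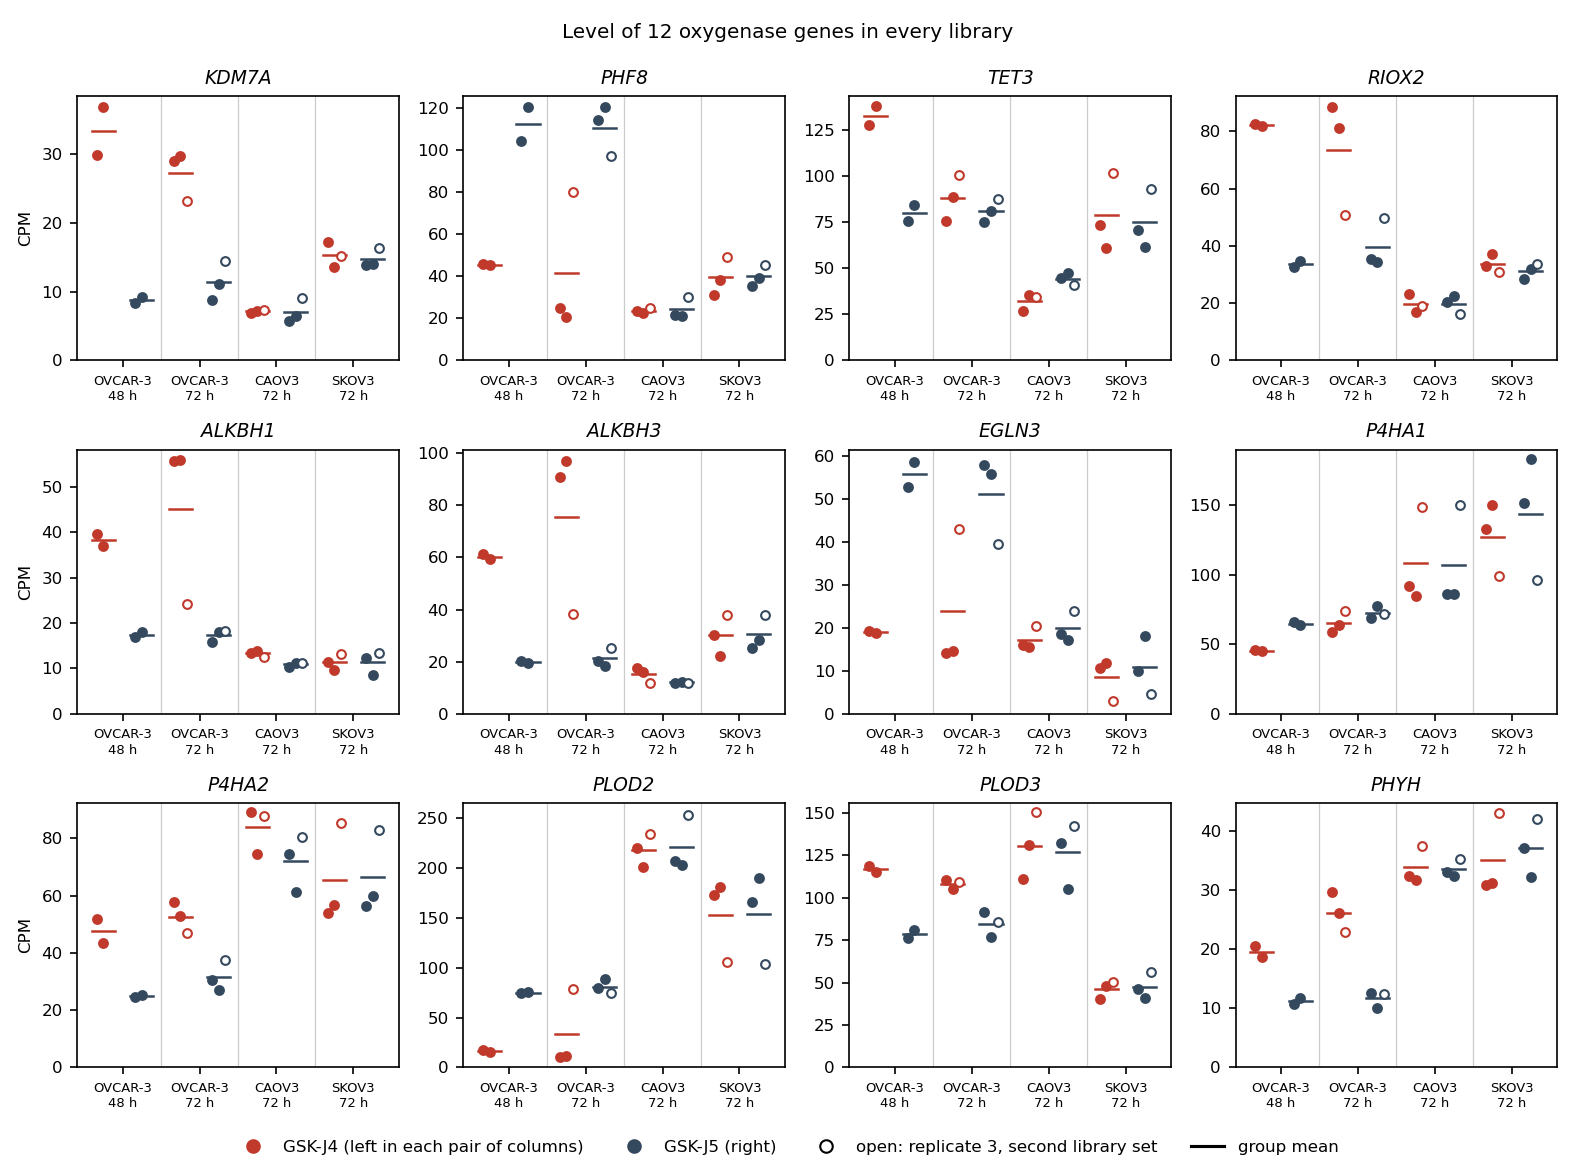
CPM of 12 genes in every library, by line and time, with GSK-J4 (red) left of GSK-J5 (dark), group means as lines and replicate 3 as open circles. In OVCAR-3 at 72 h the open GSK-J4 circles of PLOD2 (79.0 CPM), PHF8 (80.2 CPM) and EGLN3 (43.1 CPM) sit near the controls, and those of KDM7A, PHYH and P4HA2 stay above them.

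From 48 h to 72 h in OVCAR-3 the effect of GSK-J4 differed in 0 of the 44 genes when all libraries were used, beside 0.00575% of 17402 genes. Of the 44, 5 had an unadjusted p under 0.05 in edgeR, beside 7.35% of all genes, and DESeq2 called 0, beside 1.40% of genes. On the first library set alone, the change was more positive at 72 h for 6 genes and more negative for 15, beside 11.9% and 15.2% of 17090 genes. The 6 were ALKBH1, ALKBH2, ALKBH3, TMLHE, JMJD6 and OGFOD1, with differences of 0.58 to 0.82 log2 units. Of these 15, 8 were JmjC demethylase genes, which are also the largest class among the 44. KDM4B, an H3K9 demethylase, showed the largest of these differences: it had 24.4 and 19.8 CPM under GSK-J4 at 72 h against 73.4 and 74.4 CPM under GSK-J5, but 59.6 and 70.7 CPM under GSK-J4 at 48 h against 64.7 and 71.5 CPM under GSK-J5 (difference of log2 fold changes -1.64 ± 0.17 SE). TET3, higher at 48 h, had 75.4 and 88.8 CPM under GSK-J4 against 75.2 and 80.8 CPM under GSK-J5 in replicates 1 and 2 at 72 h (difference -0.62 ± 0.14 SE).

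In CAOV3 at 72 h none of the 43 genes tested passed with all replicates, beside 0.318% of 16351 genes called, and 9 had an unadjusted p under 0.05, beside 16.8% of all genes. DESeq2 called TET3 and JMJD1C lower, beside 2.32% of genes. On replicates 1 and 2 alone, KDM2A, KDM2B, KDM3B, JMJD1C and TET3 fell, 5 of 43 beside 7.38% of 16554 genes, and 0 rose, beside 6.70%. JMJD1C had 28.3, 21.3 and 53.9 CPM under GSK-J4 against 37.4, 37.4 and 59.6 CPM under GSK-J5, with replicates 1 and 2 below their controls (log2 -0.44 ± 0.14 SE, edgeR adjusted p = 0.111; log2 -0.62 ± 0.15 SE on replicates 1 and 2, adjusted p = 0.00935). TET3 had 27.1, 35.7 and 34.6 CPM under GSK-J4 against 44.7, 47.4 and 41.0 CPM under GSK-J5, without overlap (log2 -0.45 ± 0.13 SE, edgeR adjusted p = 0.101). KDM2A, an H3K36 demethylase that binds unmethylated CpG, had 150, 163 and 225 CPM under GSK-J4 against 203, 212 and 221 CPM under GSK-J5. Replicate 3 of GSK-J4 lay above all controls.

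The other genes at the ends of the CAOV3 order did not pass with all libraries. TET2 had 11.6, 11.2 and 17.9 CPM under GSK-J4 against 19.0, 12.8 and 20.3 CPM under GSK-J5, and EGLN2 had 1.14, 0.686 and 1.22 CPM under GSK-J4 against 0.955, 1.85 and 1.98 CPM under GSK-J5, both with overlapping groups. At the other end stood JMJD4, a lysyl hydroxylase of a translation termination factor, and again ALKBH1, ALKBH2 and ALKBH3. JMJD4 had 6.94, 5.78 and 7.68 CPM under GSK-J4 against 6.81, 4.09 and 3.34 CPM under GSK-J5 (edgeR adjusted p = 0.343), and 53.8% of its exon bases overlap SNAP47 on the other strand. ALKBH3 had 17.8, 16.1 and 11.9 CPM under GSK-J4 against 12.0, 12.3 and 11.8 CPM under GSK-J5, with only replicates 1 and 2 above the controls (log2 0.33 ± 0.16 SE, edgeR adjusted p = 0.326). ALKBH1 had 13.4, 13.9 and 12.6 CPM under GSK-J4 against 10.4, 11.2 and 11.2 CPM under GSK-J5, without overlap (edgeR adjusted p = 0.407). ALKBH2 had 7.78, 8.13 and 4.33 CPM under GSK-J4 against 5.24, 5.39 and 4.17 CPM under GSK-J5 (edgeR adjusted p = 0.381).

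**Figure D4:**
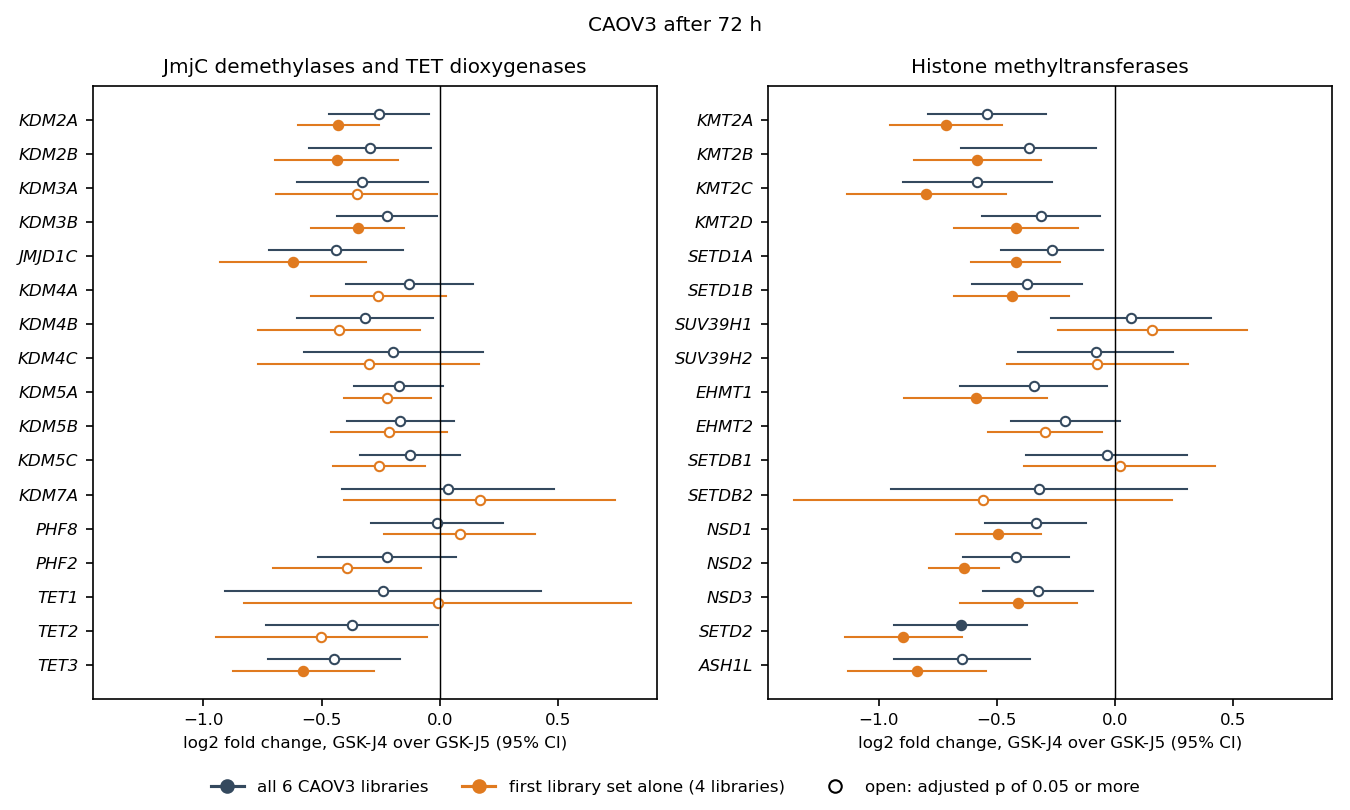
Log2 fold change of GSK-J4 over GSK-J5 in CAOV3 after 72 h (horizontal axis, with 95% confidence intervals) for JmjC demethylases and TET enzymes on the left and histone methyltransferases on the right, with all 6 libraries (dark) and with the first library set alone (orange). Filled points have an edgeR adjusted p under 0.05: 5 oxygenase genes and 12 methyltransferase genes on the first set, and SETD2 with all libraries.

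In SKOV3 no oxygenase gene passed: edgeR called 0 of 43 beside 0.0435% of 16089 genes, DESeq2 called 0 beside 0.124%, and 0 of the 43 had an unadjusted p under 0.05, beside 3.56% of all genes. With the replicate number as a block, edgeR also called 0, and 2 of the 43 had an unadjusted p under 0.05, beside 5.9% of all genes. Without the block, the highest log2 fold changes belonged to EGLN2 (0.56), KDM8 (0.24), ALKBH4 (0.16) and RIOX2 (0.10), and the lowest to EGLN3 (-0.40), P4HA1 (-0.15), FTO (-0.13) and TET1 (-0.11). EGLN3 had 10.6, 11.8 and 3.11 CPM under GSK-J4 against 9.97, 18.1 and 4.74 CPM under GSK-J5, lower in replicate 3 under both compounds. P4HA1 had 132, 150 and 99.1 CPM under GSK-J4 against 151, 183 and 96.3 CPM under GSK-J5. FTO had 53.6, 61.1 and 72.0 CPM under GSK-J4 against 69.9, 66.9 and 66.5 CPM under GSK-J5. All these groups overlapped, as did TET1, with 8.53, 9.56 and 5.75 CPM under GSK-J4 against 10.46, 9.45 and 5.99 CPM under GSK-J5. EGLN2 had 1.96, 1.26 and 1.40 CPM under GSK-J4 against 1.73, 0.543 and 0.873 CPM under GSK-J5, and KDM8 had 4.52, 4.96 and 3.69 CPM under GSK-J4 against 3.22, 4.83 and 3.08 CPM under GSK-J5. ALKBH4 had 7.76, 9.67 and 9.68 CPM under GSK-J4 against 6.68, 10.3 and 7.15 CPM under GSK-J5, and RIOX2 had 33.1, 37.1 and 30.8 CPM under GSK-J4 against 28.3, 32.1 and 33.6 CPM under GSK-J5. These groups overlapped as well.

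KDM6A and KDM6B were measured in the same libraries. KDM6B rose 1.85-fold in OVCAR-3 at 48 h, with 152 and 189 CPM under GSK-J4 against 86.0 and 102 CPM under GSK-J5 (edgeR adjusted p = 0.0188). At 72 h it had 105, 119 and 139 CPM under GSK-J4 against 104, 107 and 108 CPM under GSK-J5 and was not called. KDM6A had 29.6 and 36.1 CPM under GSK-J4 against 25.9 and 27.6 CPM under GSK-J5 at 48 h (edgeR adjusted p = 0.161). At 72 h in OVCAR-3 it had 23.7, 21.4 and 29.6 CPM under GSK-J4 against 24.5, 25.4 and 23.9 CPM under GSK-J5, with overlap. In CAOV3, KDM6B had 25.4, 39.1 and 51.6 CPM under GSK-J4 against 52.1, 46.4 and 58.3 CPM under GSK-J5, and it fell on replicates 1 and 2 alone (log2 -0.63 ± 0.16 SE, adjusted p = 0.0164) but not with all libraries (edgeR adjusted p = 0.134). KDM6A had 19.1, 19.9 and 20.1 CPM under GSK-J4 against 25.6, 21.1 and 23.98 CPM under GSK-J5 there (edgeR adjusted p = 0.368). In SKOV3 neither was called, KDM6A having 40.8, 41.0 and 34.5 CPM under GSK-J4 against 41.4, 41.9 and 33.0 CPM under GSK-J5, and KDM6B 27.2, 32.3 and 58.7 CPM under GSK-J4 against 32.6, 34.3 and 46.3 CPM under GSK-J5.

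The effect at 72 h was then compared between lines in a fit of all 18 libraries of that time. That fit gives each gene a single spread shared by the 3 lines, so the split between the OVCAR-3 replicates weighs less in it. The SE of PLOD2 was 0.57 for OVCAR-3 minus CAOV3, but 0.65 for OVCAR-3 on its own libraries, where edgeR called 0 of 43 genes. OVCAR-3 against CAOV3 gave a more positive effect for 8 of the 44 genes and a more negative one for 5, beside 13.2% and 7.74% of 19274 genes; with DESeq2 size factors the split was 5 and 5. ALKBH3, KDM7A and KDM3A led the first, with differences of log2 fold changes of 1.39 ± 0.37, 1.23 ± 0.30 and 1.18 ± 0.26 (SE; edgeR adjusted p = 0.0208, 0.0136 and 0.00947). KDM8, PLOD2 and PHF8 led the second, at -2.13 ± 0.72, -1.97 ± 0.57 and -1.68 ± 0.42 (SE; edgeR adjusted p = 0.0493, 0.0286 and 0.0153). OVCAR-3 against SKOV3 gave 10 more positive and 9 more negative, beside 13.5% and 9.08% of genes. There ALKBH3, ALKBH2 and ALKBH1 led, at 1.73 ± 0.37, 1.48 ± 0.40 and 1.26 ± 0.33 (SE; edgeR adjusted p = 0.00917, 0.0198 and 0.0187). EGLN2, KDM8 and PLOD2 stood at the other end, at -3.02 ± 0.79, -2.20 ± 0.72 and -1.99 ± 0.57 (SE; edgeR adjusted p = 0.0185, 0.0415 and 0.0265). CAOV3 against SKOV3 gave 0 of 44 in edgeR, beside 0% of genes, with 2 of the 44 at an unadjusted p under 0.05, beside 5.34% of all genes, and 0 called by DESeq2. Both counts for OVCAR-3 fell to 0 without replicate 1 or without replicate 2, beside at most 0.0052% of all genes. They were 33 and 31 without replicate 3, beside 41.5% and 42% of all genes.

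Levels under GSK-J5 at 72 h differed between lines for most of the genes, as they did for most genes tested. Per kilobase of principal transcript, KDM5C, an H3K4 demethylase, stood highest in OVCAR-3 at 78.1 ± 5.51 CPM per kilobase, followed by PLOD1 at 74.7 ± 0.85 (SD, n = 3), 2 neighbours whose spread overlapped. In CAOV3 the first were PLOD2 at 59.2 ± 7.41, ASPH at 53.6 ± 6.95 and PLOD1 at 50.1 ± 5.82 CPM per kilobase, also within each other's spread. In SKOV3 PLOD1 led at 180 ± 90.2 CPM per kilobase before ASPH at 142 ± 18.3 (SD, n = 3), with the spread of PLOD1 set by replicate 3. TET1, ALKBH8, KDM7A, KDM8, EGLN2 and OGFOD2 were the 6 lowest in each of the 3 lines.

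**Figure D5:**
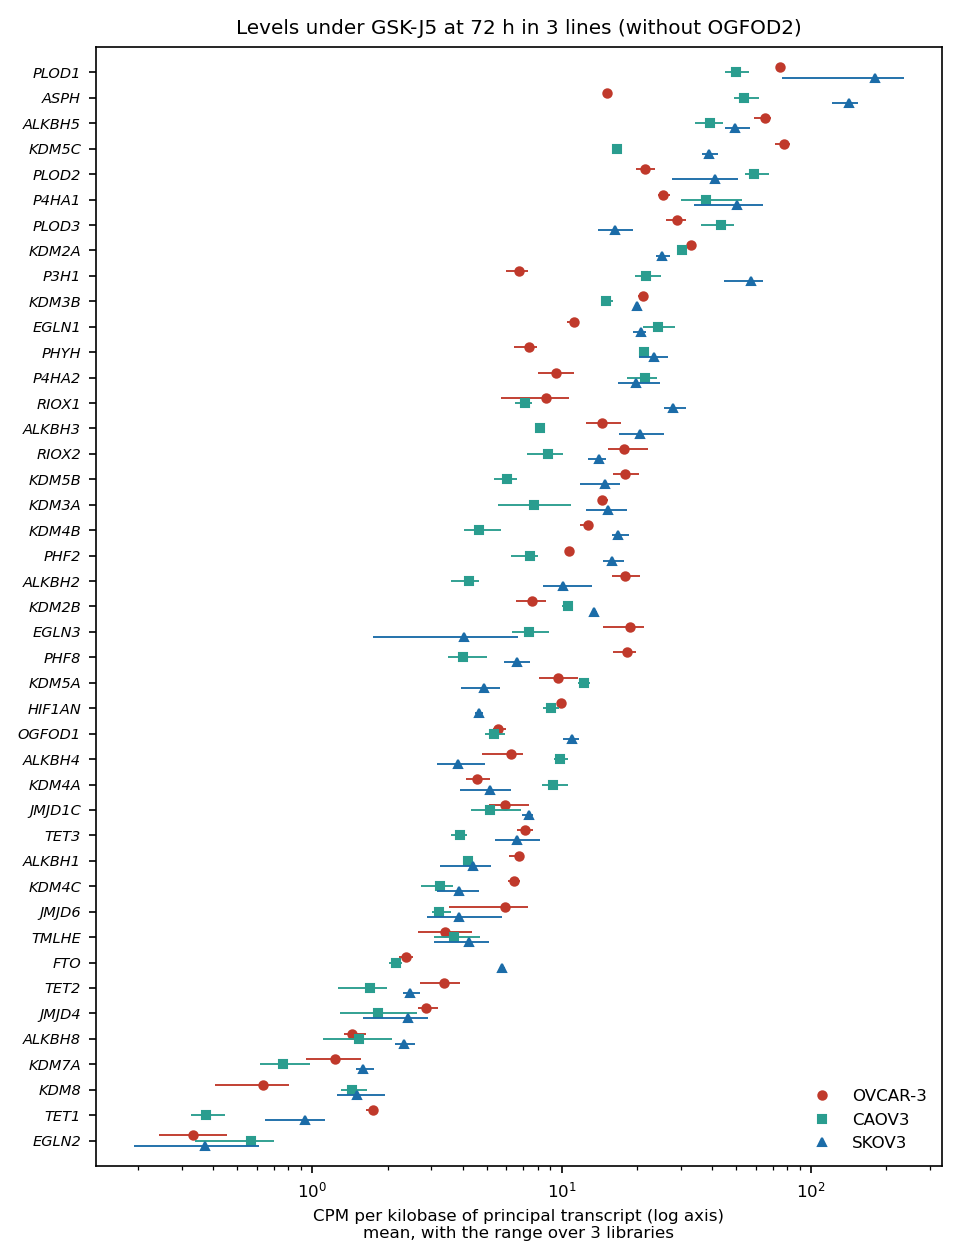
Level of 43 of the 44 genes under GSK-J5 at 72 h in OVCAR-3, CAOV3 and SKOV3, in CPM per kilobase of principal transcript on a log axis, with the mean as a symbol and the range over 3 libraries as a line. The genes run from under 1 CPM per kilobase for EGLN2 to 180 for PLOD1 in SKOV3, and ASPH, P3H1 and PHF8 are among those whose ranges do not overlap between OVCAR-3 and SKOV3.

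Between lines, edgeR called 19 of the 44 genes higher and 11 lower in OVCAR-3 than in CAOV3, beside 27.9% and 28.9% of 17966 genes. KDM5C, TET1 and PHF8 led the higher ones, with log2 differences of 2.23, 2.22 and 2.21, and ASPH, P3H1 and PHYH the lower ones, at -1.81, -1.69 and -1.52. OVCAR-3 against SKOV3 gave 13 higher and 16 lower, beside 30.5% and 28.9%. EGLN3, PHF8 and HIF1AN were highest there, at 2.28, 1.496 and 1.10, and ASPH, P3H1 and RIOX1 lowest, at -3.20, -3.07 and -1.72. CAOV3 against SKOV3 gave 8 higher and 23 lower, beside 31.7% and 30.2%. PLOD3, ALKBH4 and KDM5A led at 1.43, 1.38 and 1.34, and RIOX1, KDM4B and PLOD1 stood at the other end at -1.96, -1.85 and -1.75. PLOD1 in SKOV3 had 678, 689 and 224 CPM under GSK-J5, so that its difference rests mainly on replicates 1 and 2. Line and culture medium cannot be told apart.

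Genes that work with these enzymes were followed from lists of the same pathways. Their counts at 48 h stand beside the 11.3% of all genes called higher and 7.63% called lower in that fit, and nothing particular to a list is read from them. In OVCAR-3 at 48 h, 3 of 16 further oxygenases and JmjC proteins rose, HSPBAP1 (2.49-fold) and the hairless protein gene HR (2.46-fold) among them, and BBOX1, the last enzyme of carnitine synthesis, fell; the list's median log2 fold change was 0.12. Of 17 histone methyltransferases 3 rose, SETDB1 (2.37-fold, H3K9) and KMT2B (2.13-fold, H3K4) the most, and 0 fell. Of 13 HIF factors and hypoxia targets 3 rose, VEGFA (3.74-fold) and EPAS1 (3.51-fold) the most, and PDK1 fell. Of 14 collagen chains and partners only CRTAP, a subunit of the prolyl 3-hydroxylase complex, was called (1.67-fold higher), with a list median of -0.31. Of 15 writers and readers of N6-methyladenosine 3 rose, IGF2BP2 (2.08-fold) and YTHDC1 (1.72-fold) the most, and of 13 enzymes that supply 2-oxoglutarate or remove 2-hydroxyglutarate, GOT1 rose (3.06-fold) while IDH2 and D2HGDH fell. These calls share the fit and its dependence on the 48 h libraries.

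EPAS1, which encodes HIF-2α, had 42.3 and 42.3 CPM under GSK-J4 against 12.5 and 12.1 CPM under GSK-J5 at 48 h, and at 72 h 47.3, 58.6 and 34.7 CPM under GSK-J4 against 11.8, 13.4 and 19.2 CPM under GSK-J5. It was higher in every treated library, next to lower EGLN3 and PLOD2 in replicates 1 and 2. The other HIF-α genes lay the other way at 48 h. HIF1A had 4691 and 5497 counts under GSK-J4 against 6808 and 8103 counts under GSK-J5. HIF3A had 54 and 62 counts under GSK-J4 against 169 and 197 counts under GSK-J5. COL4A1, a basement membrane collagen chain, had 10.3, 6.01 and 51.1 CPM under GSK-J4 against 95.5, 98.3 and 68.7 CPM under GSK-J5 at 72 h. It was low in the same libraries as PLOD2, where 37.1% of all genes were called lower, and a link was not tested. COL6A1 had 1776 and 1812 raw counts under GSK-J4 against 1885 and 1765 raw counts under GSK-J5 in replicates 1 and 2. Raw counts are not scaled to the library as CPM is. Total counts there were 24305501 and 25445656 under GSK-J4 against 27393731 and 26257563 under GSK-J5. Near-equal counts of COL6A1 therefore stand for a higher CPM under GSK-J4.

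In CAOV3 the same lists gave 3 calls with all libraries, beside 0.318% of all genes, each lower: SETD2, which trimethylates H3K36 (log2 -0.65 ± 0.13 SE, edgeR adjusted p = 0.0452), VHL, which recognises hydroxylated HIF-α (log2 -0.75 ± 0.14 SE, edgeR adjusted p = 0.0438), and COL12A1 (edgeR adjusted p = 0.046). VHL had 46.2, 47.3 and 84.6 CPM under GSK-J4 against 94.4, 94.9 and 98.7 CPM under GSK-J5, with replicates 1 and 2 far below and replicate 3 just below the controls. On replicates 1 and 2 alone 12 of the 17 methyltransferases fell and 0 rose, with a list median of -0.49, next to 4 JmjC demethylases and TET3, where 7.38% of all genes were lower and 6.70% higher. In the same fit 5 of 13 enzymes of 2-oxoglutarate supply rose, PSAT1 by 1.34-fold and GLUD1 by 1.28-fold. SKOV3 had 0 calls in these lists by edgeR and by DESeq2, with at most 2 genes of any list at an unadjusted p under 0.05 in edgeR.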

How the data were processed

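The deposited raw counts per gene, whole numbers that the authors made from RNA sequencing reads of 14 samples (22 libraries), were used as they stand. STAR, DESeq2 and GRCh38 are named per the submitters' processing notes, while how reads were counted, with which strand setting and gene models, is not stated in the labels. Of the identifiers, 58472 took their symbol from the table of gene names supplied with the reference and 345 from GENCODE 29. In all, 58552 identifiers matched GENCODE 29, which gave positions, lengths and overlaps.

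The main test was edgeR's quasi-likelihood test (edgeR 4.0.16, limma 3.58.1, R 4.3.3) with TMM scaling, filterByExpr at a minimum count of 10, a term for the library set, and Benjamini-Hochberg adjustment over all genes tested at 0.05. OVCAR-3 at 48 h and the time difference were fitted on all 10 OVCAR-3 libraries, each line at 72 h on its own 6, line differences on 18 and control levels on the 9 GSK-J5 libraries of 72 h. CPM values use TMM library sizes, and levels per kilobase use the principal transcript. The alternatives were DESeq2 1.42.0, its size factors, the first set alone, leaving out libraries, a block for the replicate number, omitting the set term, and testing genes of any count. The tests were run on simulated counts with known changes, drawn with a single spread for all genes and no difference between library sets. That check does not cover the split between the OVCAR-3 replicates. The rule for genes given in full named the 4 highest and 4 lowest fold changes per line and time, genes called in all 3 lines (there were none), KDM6A and KDM6B, at most 2 called genes of each list, and the 3 highest and lowest calls between lines; other genes were added after their values were seen. The oxygenase genes and lists were chosen with earlier results of these data known. Same-numbered GSK-J4 and GSK-J5 libraries deviated together in every replicate in SKOV3 only (r = 0.443, 0.446 and 0.779 for replicates 1, 2 and 3). Deviations were taken from the mean of all 3 replicates, so they also carry the difference between library sets. The main SKOV3 fit held the set term, and the block for the replicate number was an alternative.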

Additional observations from a re-analysis of the deposited data

Results flagged for a closer look

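The effect of GSK-J4 at 72 h differed between lines, by a test of the difference itself, in 13 of the 44 genes for OVCAR-3 minus CAOV3 and in 19 for OVCAR-3 minus SKOV3, beside 20.9% and 22.6% of all 19274 genes. The differences of log2 fold changes for OVCAR-3 minus CAOV3 were 1.39 for ALKBH3, 1.23 for KDM7A and 1.18 for KDM3A, and -2.13 for KDM8, -1.97 for PLOD2 and -1.68 for PHF8. For OVCAR-3 minus SKOV3 they were 1.73 for ALKBH3, 1.48 for ALKBH2 and 1.26 for ALKBH1, and -3.02 for EGLN2, -2.20 for KDM8 and -1.99 for PLOD2. Line and culture medium cannot be told apart in these differences. The spread in this test was shared over the 3 lines, which understates the split between OVCAR-3 replicates. On the OVCAR-3 libraries of 72 h alone edgeR called 0 of 43 genes.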

How the results depend on the processing

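Counts below are of the 44 genes called, with the share of all genes tested that was called in the same fit or fits in brackets. At 48 h in OVCAR-3 (16 called, 18.9%) DESeq2 gave 25 (33.7%), no set term 4 (4.66%) and the first set alone 29 (59%). Leaving out libraries gave 0 to 29 (0% to 59%). At 72 h in OVCAR-3 (0 called, 0.0313%) DESeq2 gave 24 (39.4%), no low-count filter 4 (4.56%) and the first set alone 35 (71.7%). A fit of all 10 OVCAR-3 libraries gave 28 (43.8%), and leaving out libraries 0 to 35 (0% to 71.7%). In CAOV3 (0 called, 0.318%) DESeq2 and no low-count filter gave 2 each (4.11% and 3.27%) and the first set alone 5 (14.1%). Leaving out libraries gave 0 to 5 there (0% to 14.1%). The time difference (0 called, 0.00575%) gave 21 on the first set alone (27%), and 0 to 21 on leaving out libraries (0% to 27%). OVCAR-3 minus CAOV3 (13 called, 20.9%) gave 21 with DESeq2 (28.9%), 2 with no set term (3.53%) and 33 on the first set alone (41.5%). Leaving out libraries gave it 0 to 33 (0% to 41.5%). OVCAR-3 minus SKOV3 (19 called, 22.6%) gave 4 with no set term (4.14%) and 31 on the first set alone (42%), and 0 to 31 on leaving out libraries (0% to 42%). SKOV3 and CAOV3 minus SKOV3 stayed at 0 on leaving out libraries (0.0241% to 0.237%, and 0% to 2.26%). On leaving out replicates, level counts ran from 18 to 35 for OVCAR-3 against CAOV3 (34.2% to 62.2%). They ran from 15 to 33 for OVCAR-3 against SKOV3 (37.3% to 64.7%) and 18 to 31 for CAOV3 against SKOV3 (39.9% to 67.2%). The causes were not tested.

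With the replicate number as a block, 2 of the 44 genes were called at 48 h in OVCAR-3, beside 3.48% of all genes. The numbers did not pair the libraries of that line. The block left the counts of calls at 72 h in each line and of the time difference at 0, beside 0.149% of all genes in SKOV3 and 0% elsewhere. It was not run for the differences between lines or the control levels. Correlations of same-numbered deviations were -0.0957, 0.0389 and -0.00273 in OVCAR-3 and 0.0668, 0.0208 and 0.26 in CAOV3. Of 1062 recomputed values for 80 named results, 747 kept direction and side of the threshold, 92 newly passed, 207 no longer passed and 16 changed sign. All 16 were KDM6A or KDM6B values near 0. KDM6A in OVCAR-3 at 72 h gave 0.0206 with all 10 libraries, 0.0421 with DESeq2 size factors, 0.0426 with DESeq2, and -0.112 to 0.102 on leaving out libraries. In SKOV3 KDM6A gave -0.0277 on the first set alone, -0.00179 with no set term and -0.0281 to 0.0181 on leaving out libraries, and KDM6B gave -0.168 on the first set alone and -0.168 to 0.129 on leaving out libraries. Counting depth limits OGFOD2, EGLN2 and KDM8 most.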
